A study of Saccharomyces cerevisiae with 12 samples.

Results

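The genes described here encode the subunits of the Mediator complex, other than Med11, and of RNA polymerase II (Pol II) in budding yeast, Saccharomyces cerevisiae. They were chosen by name, from 36 systematic gene names, and 35 of them had a probe set of their own on the array, out of 5581 genes tested. Of these, 23 encode Mediator subunits and 12 encode Pol II subunits, and the remaining gene of the 36, MED17 (YER022W), was not analysed here. MED11 was left out because it lies beside EUC1, the gene altered in this study. RNA was measured on 12 Affymetrix Yeast Genome 2.0 arrays in 4 groups of 3 arrays, which the series describes as biological triplicates. In experiment A, strain MJK448, which lacks EUC1 (euc1∆), was compared with wild-type strain Y0003. In experiment B, strain MJK612, whose Euc1 carries the lysine-to-arginine exchange K231R (euc1-K231R), was compared with arrays of Y0003 of its own. The study describes the K231R allele as carrying a URA3 marker, each mutant is represented by 1 strain, and all cells were grown in rich medium with glucose to mid-log phase.

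Mediator is a large complex that carries signals from DNA-bound activators and repressors to Pol II, the enzyme that makes messenger RNA. Its head module binds the polymerase, its middle module links head and tail, the tail module receives many activators, and a separable kinase module can keep the core complex away from the polymerase. Med14 runs through the head, middle and tail as a scaffold. Pol II is built around the large subunits Rpb1 and Rpb2, and several of its small subunits are also part of RNA polymerases I and III (Pol I and Pol III). Euc1 is a DNA-binding protein at sites of ubiquitin accumulation on chromatin. Arrays measure RNA, so the values below give transcript levels and say nothing of the assembled complexes. Because the same amount of total RNA went onto each array, a change in the RNA content of all cells would not be seen.

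The deposited values are log2 expression levels, and a difference of 1 unit is a doubling or halving. Probe sets for fission yeast, which have no target in these samples, gave the background, with a median of 3.94 and a 95th percentile of 5.25. All 35 subunit genes had group means above that percentile in all 4 groups, from 6.86 for MED10 in euc1-K231R to 13.9 for RPB8 in the same strain. Replicate arrays correlated across genes with r between 0.996 and 0.999. The experiments were taken as separately normalised, so levels were compared only within an experiment. EUC1 fell by 5.36 in euc1∆, from 9.02, 9.15 and 9.14 in wild type to 3.72, 3.88 and 3.64, which lies below the fission yeast percentile (adjusted p = 2.26e-07), and in euc1-K231R it fell by 1.02 (adjusted p = 1.81e-04). URA3 rose by 2.79 in euc1-K231R (adjusted p = 3.24e-07) and differed by 0.01 in euc1∆ (adjusted p = 0.934). The 5 marker genes of mating type a were above background in every group, and of 4 marker genes of the opposite mating type 3 were also above it in every group (MF(ALPHA)2, STE3 and SAG1, up to 9.42), with the pheromone gene MF(ALPHA)1 below it. Of 8 marker genes of sporulating cells, 7 were above it in wild type of experiment A and 8 in each other group. Their highest group means were 8.43 in euc1∆ and 8.75 in wild type of experiment B. The group means of MED10 and SSN8 lay within the range of these sporulation genes. SAG1 of the opposite mating type had group means from 9.26 to 9.42. MED12 (8.75 to 8.99) and MED13 (8.95 to 9.08) lay below SAG1 in every group. So did MED3 and MED18 in both groups of experiment B and MED7 in both groups of experiment A. A level above the percentile thus does not by itself show that a gene was expressed.

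Neither mutation moved a subunit gene past the threshold. A gene was called at a limma p-value under 0.05 after adjustment over 5581 genes, and 0 of the 35 genes were called in euc1∆, where 0.125% of all genes were, and 0 of 35 in euc1-K231R, where 0.896% were. At an unadjusted p under 0.05 there were 5 subunit genes in euc1∆, which is 14.3% of them against 12.4% of all genes, and 5 in euc1-K231R, again 14.3%, against 19.4% of all genes. In euc1∆ 2 of these were higher and 3 lower, where 6.36% of all genes were higher and 6% lower at that level. In euc1-K231R 3 were higher and 2 lower, where 8.94% of all genes were higher and 10.4% lower. The median log2 fold change of the 35 genes was -0.0060 in euc1∆, beside 0.0012 for all genes, and 0.023 in euc1-K231R, beside 0.0037 for all genes. Without regard to sign, the median was 0.036 in euc1∆ against 0.051 for all genes, and 0.055 in euc1-K231R against 0.071 for all genes. In euc1∆ 15 of the genes had values above 0 and 20 below, and in euc1-K231R 19 were above 0 and 16 below.

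**Figure D1:**
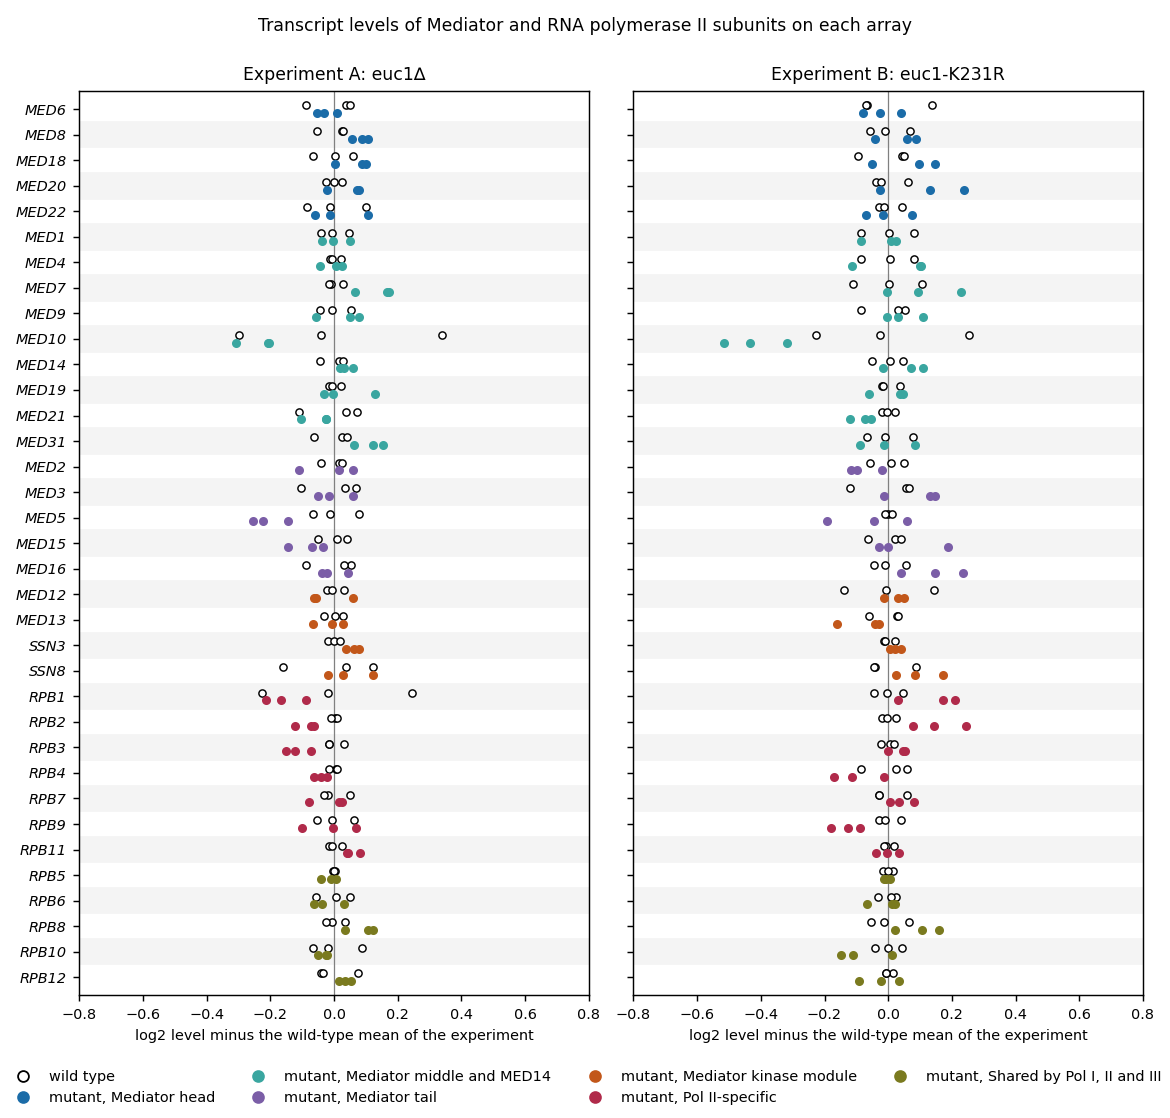
Each point is 1 array, and the x axis gives the log2 level of the gene on the y axis minus the mean of the 3 wild-type arrays of the same experiment; open points are wild type and filled points the mutant, coloured by module. Most points lie near 0, and the wild-type points of MED10 are the most widely spread in both experiments.

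The arrays also limited, gene by gene, how large an undetected change could be. The intervals below were set for each gene singly, without allowance for the number of genes, so some may miss the true value. The 95% interval of the log2 fold change lay wholly within 0.25 of 0 for 32 of 35 genes in euc1∆, with MED5, MED10 and RPB1 as the exceptions. In euc1-K231R it did so for 28 of 35 genes, the exceptions being MED3, MED7, MED10, MED16, MED20, RPB1 and RPB2. It lay within 0.5 of 0 for 34 of 35 genes in each mutant, and MED10 was the exception in both. For comparison, MED11, the head subunit gene next to EUC1, stood at 10.35, 10.27 and 10.38 in wild type and at 9.52, 9.49 and 9.70 in euc1∆, and fell by 0.76 (adjusted p = 0.0147, which passed 0.05 in 1 of the 6 fits that left out an array, without euc1∆ replicate 3, and ranged from 0.00503 to 0.160 over those fits). In euc1-K231R the MED11 difference was 0.11 (adjusted p = 0.259). In both mutants the intervals of all 35 other subunit genes lay above -0.76, the MED11 value in euc1∆. That comparison leaves out the interval of MED11 itself, and the lowest bound was -0.69, for MED10 in euc1-K231R.

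**Figure D2:**
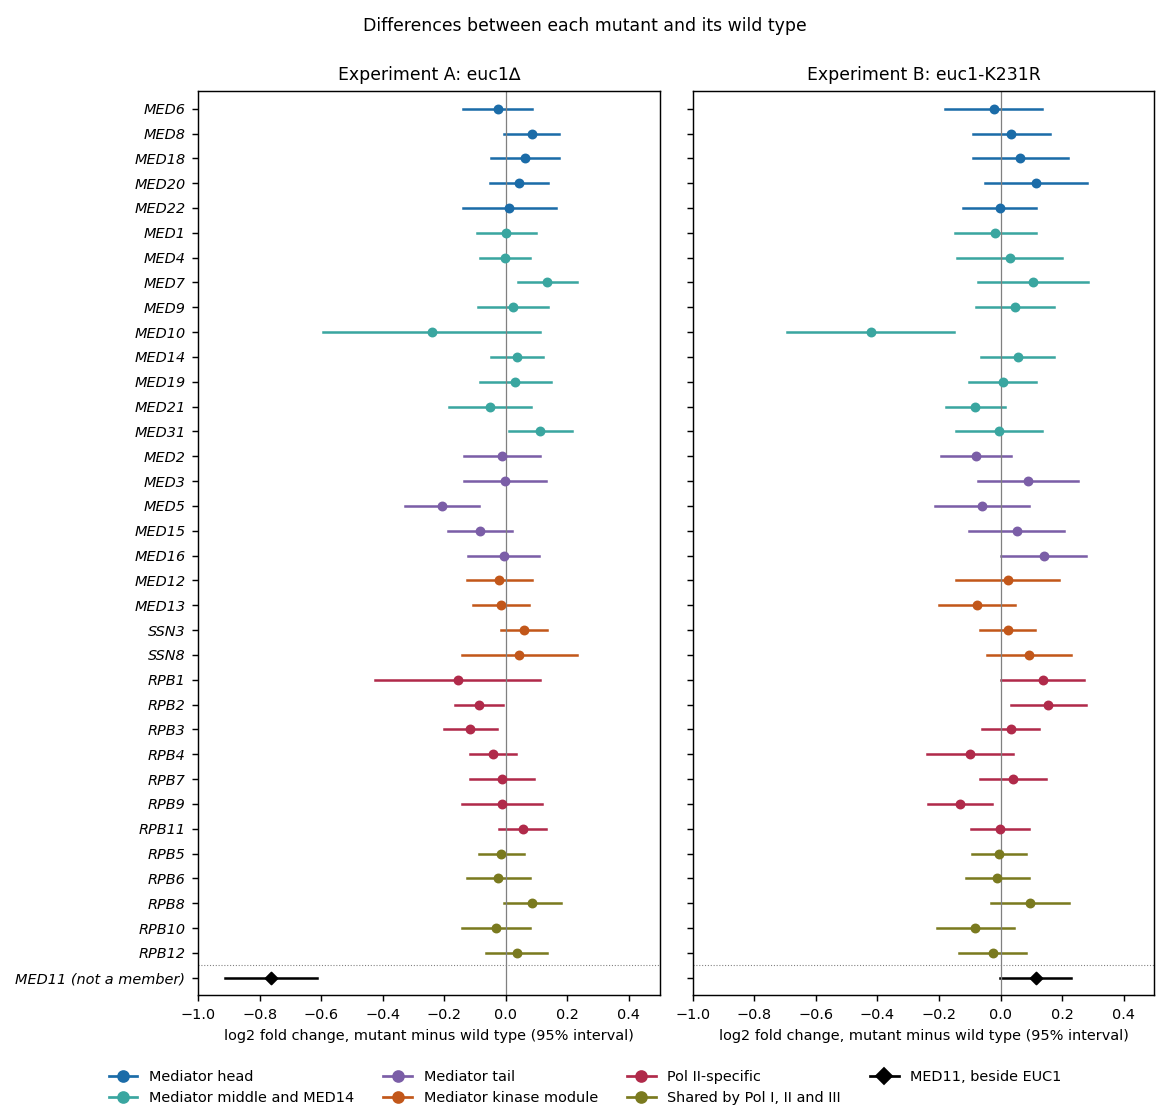
Points give the log2 fold change of each gene, mutant minus wild type of the same experiment (3 arrays each), and lines the 95% interval from limma; colours mark the module and black diamonds the neighbouring gene MED11. The interval of MED10 is the widest in euc1∆ and in euc1-K231R its value of -0.42 is the lowest, while MED11 stands at -0.76 in euc1∆ and 0.11 in euc1-K231R.

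The head module showed values close to wild type. Its 5 measured genes, which leave out MED11 and MED17, had log2 fold changes between -0.026 and 0.084 in euc1∆ and between -0.022 and 0.11 in euc1-K231R. MED22 (SRB6, YBR253W) encodes the direct partner of Med11 in the head, and it stood at 10.67, 10.60 and 10.78 in wild type and at 10.79, 10.67 and 10.62 in the deletion strain. These groups overlapped, and the difference was 0.012 with an interval from -0.14 to 0.16 (adjusted p = 0.953), while in euc1-K231R it was -0.0030 (adjusted p = 0.980). MED8 (YBR193C), whose product ties Med18 and Med20 to the rest of the head, was at 9.49, 9.57 and 9.57 in wild type and at 9.60, 9.65 and 9.63 in euc1∆. All 3 mutant arrays lay above all 3 wild-type arrays, by a mean of 0.084, which did not pass the test (adjusted p = 0.428). The highest head value in euc1-K231R belonged to MED20 (SRB2, YHR041C), whose product pairs with Med18, at 11.68, 11.58 and 11.42 against 11.40, 11.51 and 11.42 in wild type, a difference of 0.11 (adjusted p = 0.402). It was 0.053 without euc1-K231R replicate 1 and 0.19 without replicate 3.

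Among the 9 genes of the middle module and the scaffold, MED10 had the largest differences and also the largest scatter. MED10 (NUT2, YPR168W) encodes a conserved middle subunit, and its signal lay closest to the fission yeast level. In experiment B it stood at 7.25, 7.53 and 7.05 in wild type and at 6.96, 6.76 and 6.84 in euc1-K231R. The groups did not overlap, the difference was -0.42 with an interval from -0.69 to -0.15, and it did not pass the test (adjusted p = 0.146, limma). Its size was -0.25 after quantile normalisation over the S. cerevisiae genes (adjusted p = 0.157). In experiment A MED10 stood at 7.69, 8.06 and 7.43 in wild type and at 7.42, 7.52 and 7.52 in euc1∆. These groups overlapped, and the difference of -0.24 (adjusted p = 0.538) was -0.071 when wild-type replicate 2 was left out and -0.39 without replicate 3 of that group. The wild-type SD of MED10 was 0.32 in experiment A and 0.24 in experiment B, the largest of the 35 genes in both, against median SDs of 0.046 and 0.051 over the subunit genes.

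MED7 and MED31 encode partners within the middle module. MED7 (YOL135C) was at 9.06, 9.10 and 9.06 in wild type and at 9.14, 9.25 and 9.24 in euc1∆, a difference of 0.13 (adjusted p = 0.283). MED31 (SOH1, YGL127C) was at 9.76, 9.85 and 9.86 in wild type and at 9.98, 9.95 and 9.89 in euc1∆, a difference of 0.11 (adjusted p = 0.369). For both genes every euc1∆ array lay above every wild-type array, and neither passed the test over all genes. In euc1-K231R MED7 differed by 0.11 (adjusted p = 0.473) and MED31 by -0.0052 (adjusted p = 0.971), with overlapping groups. MED21 (SRB7, YDR308C), which encodes the partner of Med7 at the hinge of the module, was at 10.69, 10.73 and 10.70 in wild type and at 10.63, 10.65 and 10.59 in euc1-K231R, groups that did not overlap, with a difference of -0.082 (adjusted p = 0.309). The scaffold gene MED14 (RGR1, YLR071C) differed by 0.036 in euc1∆ (adjusted p = 0.694) and by 0.055 in euc1-K231R (adjusted p = 0.565). The other members of the module, MED1, MED4, MED9 and MED19, had values between -0.0038 and 0.032 in euc1∆ and between -0.017 and 0.045 in euc1-K231R.

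The tail module held the subunit gene with the smallest p-value in euc1∆. MED5 (NUT1, YGL151W), a nonessential tail subunit gene, stood at 10.65, 10.70 and 10.79 in wild type and at 10.49, 10.46 and 10.57 in euc1∆. All euc1∆ arrays lay below all wild-type arrays, and the difference was -0.21 with an interval from -0.33 to -0.088 (adjusted p = 0.242). It ranked 109 of 5581 genes by p-value. In euc1-K231R MED5 was at 10.60, 10.74 and 10.85 against 10.79, 10.80 and 10.78 in wild type, which overlapped (difference -0.060, adjusted p = 0.628). All 5 tail genes had values below 0 in euc1∆, but 3 of them, MED2, MED3 and MED16, lay within 0.012 of 0 and changed sign under at least 1 alternative. MED15 (GAL11, YOL051W), which encodes the main target of several activators including Gal4 and Gcn4, had a value of -0.084 (adjusted p = 0.478). In euc1-K231R 3 of the 5 tail genes had values above 0, with the highest for MED16 (SIN4, YNL236W), the gene of the subunit that ties the tail to the rest of Mediator. MED16 was at 10.62, 10.56 and 10.52 in wild type and at 10.72, 10.80 and 10.61 in euc1-K231R, so that 1 mutant array lay below the highest wild-type array, and the difference was 0.14 (adjusted p = 0.253).

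The kinase module, made of the cyclin-dependent kinase Ssn3 (Cdk8), its cyclin Ssn8, Med12 and Med13, had values between -0.021 and 0.059 in euc1∆ and between -0.077 and 0.092 in euc1-K231R. SSN3 (YPL042C) was at 9.93, 9.95 and 9.96 in wild type and at 9.98, 10.01 and 10.02 in euc1∆. The groups did not overlap although they differed by only 0.059 (adjusted p = 0.497). SSN8 (YNL025C) was at 8.10, 8.23 and 8.09 in wild type and at 8.31, 8.22 and 8.16 in euc1-K231R, with overlap. Its difference of 0.092 (adjusted p = 0.410), the highest of the module, was 0.053 without euc1-K231R replicate 1 and 0.15 after quantile normalisation. MED12 (SRB8) and MED13 (SSN2), the large subunit genes of the module, differed by -0.021 and -0.015 in euc1∆ and by 0.023 and -0.077 in euc1-K231R, with adjusted p-values between 0.451 and 0.894.

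Among the Pol II-specific genes, the values for the largest subunits had opposite signs in the mutants, but neither gene passed the test in either mutant. RPB1 (RPO21, YDL140C) encodes the catalytic subunit that carries the C-terminal repeat domain. It was at 11.35, 11.56 and 11.82 in wild type and at 11.36, 11.41 and 11.49 in the deletion strain, so its arrays lay within the wild-type range, and the difference of -0.16 did not pass the test (adjusted p = 0.593). It was -0.035 when wild-type replicate 3 was left out and -0.27 without replicate 1 of that group. In experiment B RPB1 was at 10.948, 10.997 and 10.907 in wild type and at 11.16, 11.12 and 10.98 in euc1-K231R, with 1 mutant array below the highest wild-type array and a difference of 0.14 (adjusted p = 0.252).

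RPB2 (YOR151C) encodes the other large subunit, which forms the active site with Rpb1. It was at 12.27, 12.28 and 12.26 in wild type and at 12.15, 12.21 and 12.20 in euc1∆, a difference of -0.086 (adjusted p = 0.367). In experiment B it was at 12.29, 12.33 and 12.30 in wild type and at 12.55, 12.45 and 12.39 in euc1-K231R, a difference of 0.16 (adjusted p = 0.178). The groups did not overlap in either experiment, with the mutant lower in euc1∆ and higher in euc1-K231R. RPB3 (YIL021W), whose product begins the assembly of the enzyme with Rpb11, was at 11.66, 11.61 and 11.61 in wild type and at 11.50, 11.47 and 11.55 in euc1∆, also without overlap (difference -0.12, adjusted p = 0.295). In euc1-K231R the RPB3 difference was 0.033 (adjusted p = 0.666). RPB11 itself (YOL005C) differed by 0.056 in euc1∆ (adjusted p = 0.519), in the opposite direction to RPB3 and again without overlap.

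RPB4 and RPB7 encode the stalk that can leave the core enzyme. RPB4 (YJL140W) was at 12.16, 12.13 and 12.16 in wild type and at 12.13, 12.09 and 12.11 in the deletion strain, a difference of -0.042 (adjusted p = 0.602), and in euc1-K231R it differed by -0.099 (adjusted p = 0.389). RPB7 (YDR404C) differed by -0.013 in euc1∆ and by 0.041 in euc1-K231R (adjusted p = 0.927 and 0.641). RPB9 (YGL070C), whose product acts in start site choice and proofreading, was at 11.16, 11.23 and 11.18 in wild type and at 11.01, 11.07 and 11.10 in euc1-K231R. Every mutant array lay below every wild-type array, and the difference was -0.13 (adjusted p = 0.181). In euc1∆ the RPB9 difference was -0.011 (adjusted p = 0.951).

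The 5 genes whose products are shared with Pol I and Pol III all had overlapping groups in both mutants. RPB5 (YBR154C) was at 12.54, 12.55 and 12.54 in wild type and at 12.50, 12.54 and 12.55 in euc1∆, with an interval of the difference from -0.088 to 0.060. RPB8 (YOR224C) had the highest difference of the shared genes in both mutants. It was at 13.27, 13.25 and 13.31 in wild type and at 13.31, 13.38 and 13.40 in euc1∆, a difference of 0.087 (adjusted p = 0.425), or 0.058 after quantile normalisation. In experiment B it was at 13.82, 13.90 and 13.78 in wild type and at 14.00, 13.94 and 13.86 in euc1-K231R, a difference of 0.096 (adjusted p = 0.359). In each experiment 1 mutant array lay within the wild-type range. RPB6 (RPO26), RPB10 and RPB12 (RPC10) had values between -0.032 and 0.035 in euc1∆ and between -0.082 and -0.011 in euc1-K231R.

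Counted over all 35 genes, the mutant and wild-type arrays did not overlap for 9 genes in euc1∆, which is 25.7% of them, where 18.1% of all genes did not overlap. Of these, 5 were higher (MED7, MED8, MED31, SSN3 and RPB11, against 9.84% of all genes higher without overlap) and 4 lower (MED5, RPB2, RPB3 and RPB4, against 8.24% lower). In euc1-K231R there were 4 such genes, 11.4% of the subunit genes, against 25.8% of all genes. RPB2 was higher, where 14% of all genes were, and MED10, MED21 and RPB9 were lower, where 11.8% of all genes were. RPB2 was the one gene without overlap in both mutants.

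The effects of the mutations were then set against each other in a fit of all 12 arrays, by subtracting the effect of euc1-K231R from that of euc1∆. Each mutant was measured in a single experiment, so genotype and experiment cannot be told apart in this difference. None of the 35 genes passed, where 1.25% of all genes did, and 2 had an unadjusted p under 0.05 (5.71% of the genes, against 16.8% of all genes), both with values below 0, where 8.64% of all genes had values above 0 at that level and 8.12% below. For RPB2 the difference was -0.24 with an interval from -0.37 to -0.11 (adjusted p = 0.0925). It passed after quantile normalisation (-0.25, adjusted p = 0.0476) and without euc1-K231R replicate 3 (-0.28, adjusted p = 0.0411), and over the alternatives its adjusted p ranged from 0.0411 to 0.253. For RPB3 the difference was -0.15 (adjusted p = 0.170). RPB1 showed -0.29 with a wide interval, from -0.59 to 0.0016 (adjusted p = 0.299). MED10 had values below 0 in both mutants, neither of which passed the test, and its effects differed by 0.18 with an interval from -0.27 to 0.63 (adjusted p = 0.689). For the neighbour MED11 the difference was -0.88 (adjusted p = 1.84e-04).

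**Figure D3:**
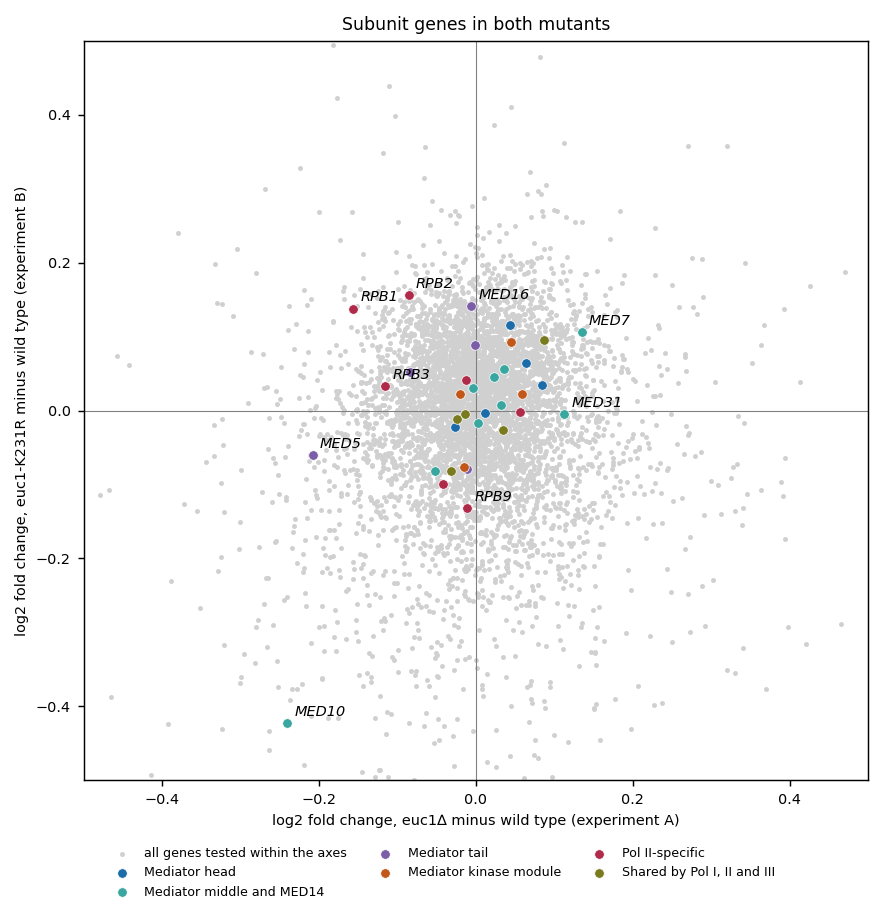
The x axis gives the log2 fold change in euc1∆ and the y axis that in euc1-K231R, each against the wild type of its own experiment; coloured points are the 35 subunit genes and grey points all genes tested within the axes. RPB1 and RPB2 lie to the upper left (-0.16 and 0.14; -0.086 and 0.16), MED10 lies to the lower left (-0.24 and -0.42), and most subunit genes lie near the centre.

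A further description, chosen after the values were seen, concerns the length of the genes. Coding length, introns included, was taken from RefSeq, where RPB1 has 5202 bp and RPB2 3675 bp. Of the 7 subunit genes of at least 3000 bp (MED5, MED12, MED13, MED14, MED15, RPB1 and RPB2), 1 had a value above 0 in euc1∆ (median -0.084) and 5 in euc1-K231R (median 0.052). These counts include RPB1 and RPB2, which prompted the description. Of the other genes, MED12 and MED15 were below 0 in euc1∆ and above 0 in euc1-K231R like them, while MED14 was above 0 in both mutants and MED5 and MED13 were below 0 in both, and the signs of MED12 in both mutants, of MED13 in euc1∆ and of MED5 and MED15 in euc1-K231R changed under at least 1 alternative. The 461 genes of that length on the whole array had 104 values above 0 in euc1∆ (median -0.048) and 300 in euc1-K231R (median 0.039). The 672 genes under 500 bp had medians of -0.0078 and -0.034. In euc1∆ the medians did not fall steadily with length, since the class from 500 to 1000 bp stood at 0.022. Of the 10 subunit genes under 500 bp, 6 had values above 0 in euc1∆ and 2 in euc1-K231R. Over 5564 genes with a length, Spearman's rho between length and log2 fold change was -0.20 in euc1∆ and 0.14 in euc1-K231R. Over the 35 subunit genes rho was -0.27 and 0.39, over the 23 Mediator genes -0.32 and 0.098, and over the 12 Pol II genes, RPB1 and RPB2 included, -0.76 and 0.54; these points share the same arrays, so no test is given. With the trend on length removed from each array, RPB2 was at -0.044 in euc1∆ and 0.12 in euc1-K231R (adjusted p = 0.645 and 0.209), and RPB1 at -0.099 and 0.097 (adjusted p = 0.713 and 0.334). The difference between the mutants was then -0.16 for RPB2 (adjusted p = 0.194) and -0.17 for RPB3 (adjusted p = 0.127), whose coding length is 957 bp. The labelling was primed from the 3′ end of the transcripts, and RNA integrity was not tested.

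**Figure D4:**
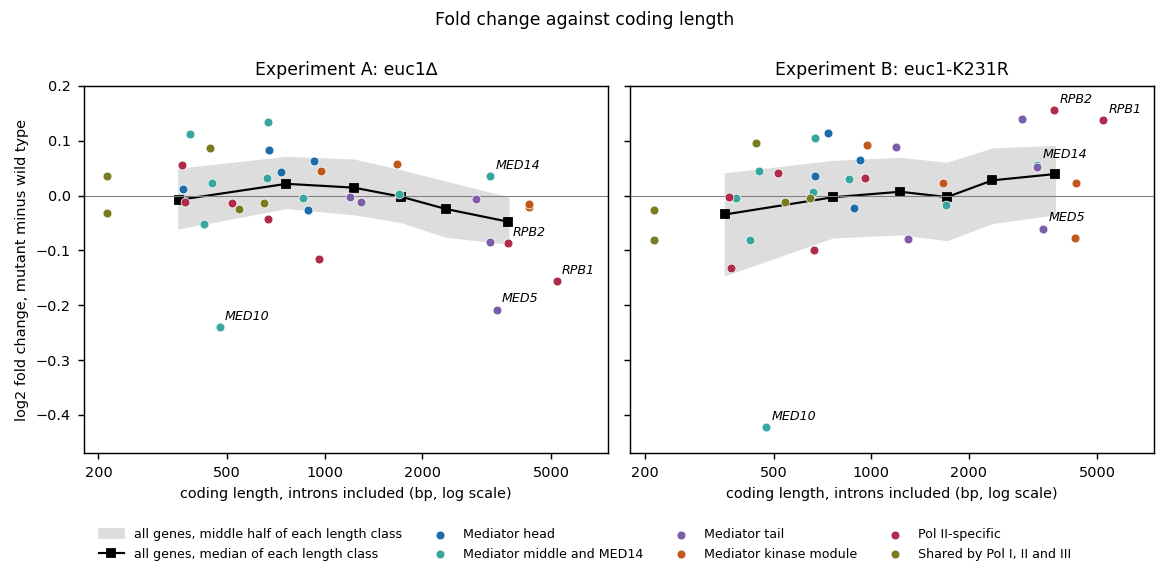
The x axis gives the coding length in bp on a log scale and the y axis the log2 fold change, mutant minus wild type, with experiment A on the left and B on the right; black squares are medians of all genes in 6 length classes, the grey band their interquartile range, and coloured points the 35 subunit genes. In the class of at least 3000 bp the median of all genes was -0.048 in euc1∆ and 0.039 in euc1-K231R, and RPB1 and RPB2 lie on the same side of 0.

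Averaged over the Mediator genes, the arrays of the mutants mostly lay among those of the wild type. The mean deviation of the 23 Mediator genes from their wild-type mean was -0.032, 0.020 and 0.012 on the wild-type arrays of experiment A and -0.017, 0.0045 and 0.0095 on the euc1∆ arrays. In experiment B the wild-type arrays had -0.028, 0.059 and -0.031, and the euc1-K231R arrays 0.037, 0.025 and -0.048. The replicates thus differed among themselves by more than the group means did. For the 12 Pol II genes the mean deviation was 0.0097, -0.026 and 0.016 on the wild-type arrays of experiment A and -0.038, -0.044 and 0.0030 on the euc1∆ arrays, which overlapped, as did the groups of experiment B. The 7 Pol II-specific genes alone had -0.012, -0.018 and 0.030 in wild type. In euc1∆ they had -0.056, -0.083 and -0.020, without overlap, while in experiment B their groups overlapped. In euc1∆ 1 of these 7 genes was above 0 and 6 below. Singly, 4 of the 7 (57.1%) had no overlap, 1 higher and 3 lower, against 18.1% of all genes. They share the same arrays, so no test is given. The median SD of the subunit genes between replicates was 0.046, 0.047, 0.051 and 0.070 in wild type A, euc1∆, wild type B and euc1-K231R, beside 0.050, 0.056, 0.059 and 0.068 for all genes.

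Genes of other transcription factors and polymerases did not pass the test either. Of 67 such genes (18 of the general transcription factors, 14 of the TFIID subunits, 16 of elongation and C-terminal domain factors, 7 of Pol I, 10 of Pol III and 2 shared by these), 0 were called in either mutant or in the difference between them. At an unadjusted p under 0.05 there were 10 in euc1∆ (14.9%, against 12.4% of all genes) and 11 in euc1-K231R (16.4%, against 19.4%). In euc1∆ 2 were higher and 8 lower, where 6.36% of all genes were higher and 6% lower at that level. In euc1-K231R 7 were higher and 4 lower, where 8.94% of all genes were higher and 10.4% lower. Their median was -0.027 in euc1∆ and 0.019 in euc1-K231R. In euc1∆ the general transcription factor genes were 10 above 0 and 8 below, the TFIID genes 7 and 7, the elongation genes 3 and 13, the Pol I genes 1 and 6 and the Pol III genes 1 and 9, where 2816 of all genes were above 0 and 2765 below. In euc1-K231R the counts were 12 and 6, 11 and 3, 9 and 7, 2 and 5, and 4 and 6 in the same order, where 2880 of all genes were above 0 and 2701 below. Genes counted together share the same arrays, so their signs are not independent and no test of these counts is given. The smallest adjusted p in euc1∆ was 0.259, for TAF1 (-0.12), the gene of the largest TFIID subunit. It was 0.276 for the Pol III gene RPC53 (-0.16), 0.300 for RPA190 (-0.15), the gene of the largest Pol I subunit, 0.320 for the elongation gene PAF1 (-0.096) and 0.325 for TFG2 (0.11), a subunit gene of TFIIF. The smallest adjusted p in euc1-K231R was 0.140, for CTK1 (-0.17), which encodes a kinase of the C-terminal domain of Rpb1. It was 0.146 for TOA2 (-0.23), a subunit gene of TFIIA, 0.172 for the Pol III gene RPC17 (-0.21), 0.213 for the TFIID gene TAF5 (0.12) and 0.378 for the Pol I gene RPA135 (0.072).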

How the data were processed

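The values deposited by the authors are log2 expression levels per probe set, made with RMA, which corrects background, normalises by quantiles and summarises probes. RMA and limma are named in the submitters' processing notes, with versions not given in the sources used here. RNA (3′-primed, biotin-labelled) came from 12 arrays, 3 per group, and this number limits the precision. No value was shared exactly between arrays of different experiments (42 to 216 within one), so the experiments were taken as separately normalised. The authors' deposited comparison tables also hold fold changes and adjusted p-values, which were not used. Of 5713 S. cerevisiae probe sets, 132 with several matches were left out, leaving 5581. Names and coding lengths came from a RefSeq gene table (R64). No coordinates are printed, since the build behind the array annotation is unknown here.

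Each mutant was fitted against its wild type on 6 arrays with limma 3.58.1 (lmFit, eBayes) in R 4.3.3, with Benjamini-Hochberg adjustment over 5581 genes. The difference between mutants used 12 arrays and 4 group means. Array values are given for subunit genes with an unadjusted p under 0.05 (up to 6 per comparison) and for the largest change in each module; further genes were shown for their role (MED22, RPB4, RPB5) or because their groups did not overlap (MED21), chosen after their values were seen. In each related list of at least 7 genes the gene with the smallest p in each mutant was named. The scripts were tested on simulated data. Members, lists and tests were chosen with earlier results of these data known. Figures were drawn with matplotlib 3.10.9.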

Additional observations from a re-analysis of the deposited data

Results flagged for a closer look

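By a limma test of the difference itself over 12 arrays, the effects of euc1∆ and euc1-K231R differed for 70 of 5581 genes, none of them among the 35 subunit genes, and 3 of the 70 are genes reported here. Genotype and experiment cannot be told apart in this test, since each mutant was measured in a single experiment. EUC1 differed by -4.34 (adjusted p = 1.27e-10). URA3 differed by -2.78 (adjusted p = 1.06e-09), and the study describes a URA3 marker on the K231R allele. MED11 differed by -0.88 (adjusted p = 1.84e-04). HOP1 differed by 0.58 (adjusted p = 0.0328) and SPS4 by -0.57 (adjusted p = 0.0372).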

How the results depend on the processing

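Alternatives were median centring, quantile normalisation, a trended robust prior, a 12-array fit, a filter at the fission yeast level, all probe sets, inclusion of multiple-match probe sets, the replicate number as a block, each array left out and, chosen after seeing the data, removal of the length trend. No subunit gene was called in either mutant under any of them. In the difference between mutants 1 gene, RPB2, was called after quantile normalisation (adjusted p = 0.0476) and without euc1-K231R replicate 3 (adjusted p = 0.0411), and 0 to 1 over the fits that left out 1 array; the cause was not tested. The median of the subunit genes ranged from -0.021, without euc1∆ replicate 3, to 0.0025 in euc1∆ and from -0.0013 to 0.031 in euc1-K231R over those fits. The 20 effects with the smallest p-values or largest sizes per module kept their sign in every alternative, but over all 35 subunit genes 15 in euc1∆, 13 in euc1-K231R and 15 in the difference changed sign under at least 1, with effects of at most 0.044, 0.060 and 0.048 in size. The calls over all genes ranged from 1 to 21 in euc1∆, 11 to 124 in euc1-K231R and 21 to 100 in the difference. Same-numbered arrays of wild type and mutant deviated with correlations of -0.20, 0.11 and -0.21 in experiment A and -0.22, -0.087 and 0.30 in experiment B, so the numbers were not taken to pair the samples. With the replicate block 0 subunit genes were called in each comparison (smallest adjusted p = 0.424, 0.193 and 0.192), and calls over all genes went from 7 to 1, 50 to 27 and 70 to 21; the median of the subunit genes stayed at -0.0060 in euc1∆ and 0.023 in euc1-K231R. The MED11 call in euc1∆ was lost with the block (adjusted p = 0.0814) and over all probe sets (adjusted p = 0.0667). The 3 arrays per group limit the precision, and MED10, whose signal was closest to background, had the widest interval.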
